A study of Homo sapiens with 18 samples.

Results

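The genes of cholesterol and fatty acid synthesis were followed across prostate cancer cells that had lost TRIM24 or had been given androgen. The set held 36 genes: 18 enzymes of sterol synthesis, 5 genes that regulate or carry sterols, and 13 genes that make, modify or bind fatty acids. They were chosen by name, through the gene symbol that the platform annotation gives each probe set of the array. The choice was made with earlier results of these data known, so shares of these genes beside all genes are descriptive. A probe set of their own was found for 33 of the 36, on 74 of the 54675 probe sets, and 33 of the 19775 genes named by 1 symbol were therefore members. These were 16 sterol enzymes, the 5 regulators and 12 fatty acid genes. CYP51A1 and FADS1 lay on probe sets shared with another symbol and FDFT1 had none, so these 3 have no expression values here. The promoters of CYP51A1 and FADS1 are counted among those searched for motifs.

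RNA was measured on 18 Affymetrix arrays from LNCaP, an androgen-dependent human prostate cancer line, and LNCaP-abl, a line derived from it that grows without androgen. The 6 groups of 3 arrays were LNCaP-abl with siTRIM24 and vehicle, LNCaP-abl with sicontrol and vehicle, LNCaP with siTRIM24 and DHT, LNCaP with siTRIM24 and vehicle, LNCaP with sicontrol and DHT, and LNCaP with sicontrol and vehicle. DHT is dihydrotestosterone, the potent androgen, given at 10 nM for 24 h, and the vehicle was ethanol. The cells were transfected for 48 h. The labels give hormone starvation in medium with charcoal/dextran-treated serum in a growth protocol that names LNCaP and is attached to the LNCaP-abl samples too, so the culture of LNCaP-abl is uncertain. LNCaP-abl had no DHT arrays among those analysed here. The labels name neither the siRNA sequences nor separate cultures behind the 3 replicates, and the p-values then speak of scatter among arrays that may be technical repeats. In bulk RNA, fewer cells and less RNA per cell cannot be told apart.

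Cells build cholesterol from acetyl-CoA through mevalonate, isoprenoids, squalene and lanosterol, and build fatty acids from the same acetyl-CoA through malonyl-CoA. Both arms are transcribed under SREBP factors, which the protein SCAP escorts out of the endoplasmic reticulum when sterols are low and which INSIG proteins hold back when sterols are high. In prostate cancer cells androgens are known to raise lipid synthesis, and SREBP activity is part of that response. TRIM24 is a chromatin reader and transcriptional coregulator of nuclear receptors.

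The knockdown was checked on TRIM24 itself. Its log2 signal was 7.45, 7.55 and 7.35 in LNCaP-abl with siTRIM24, against 9.44, 9.60 and 9.55 with sicontrol. In LNCaP under DHT it was 8.09, 8.04 and 7.89 with siTRIM24, against 10.12, 10.13 and 10.17 with sicontrol. In LNCaP with vehicle it was 7.73, 7.70 and 7.69 with siTRIM24, against 9.69, 9.71 and 9.71 with sicontrol. TRIM24 was lower in every knockdown array. Array medians lay between 5.83 and 5.93, and arrays of 1 group correlated at 0.996 to 0.998 over all probe sets. Of 6 luminal prostate markers measured, 4 were above the overall median of 5.88 in every group. KLK3 averaged 5.70 in LNCaP-abl under either siRNA, and KLK2 lay below 5.88 in LNCaP-abl and in vehicle-treated LNCaP. Of 4 fibroblast markers 1, and of 4 leukocyte or endothelial markers 2, were above 5.88 in every group. Both basal markers measured were below 5.88 in all groups, as was PTPRC, the common leukocyte marker. Log2 values of different genes are not comparable as levels, since each probe set binds with its own strength.

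Values below are RMA log2 signals of the brightest probe set of a gene. Differences are log2 changes from limma with their SE, over 13607 genes that reached 5.88 in at least 3 arrays, and a gene passed at a Benjamini-Hochberg adjusted p under 0.05. All 33 members were among the 13607. FABP5 reached 5.88 only through LNCaP-abl, and ACSL4 averaged 5.33 in LNCaP with sicontrol and vehicle and 4.95 with sicontrol and DHT. At such dim signals array changes are compressed, and no size is read for ACSL4 or FABP5 against a group below 5.88, although both count among the members that passed.

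**Figure D1:**
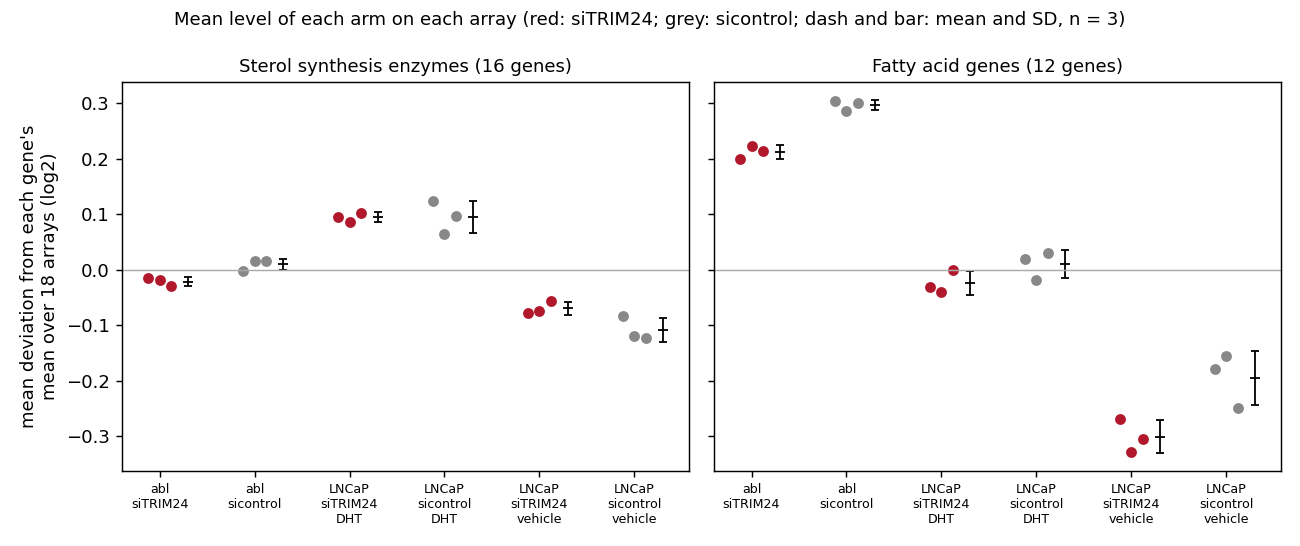
Each point is the mean, over the members of an arm, of the deviation of a gene's log2 signal from its mean over all 18 arrays. The 6 groups run along the horizontal axis with 3 arrays each. The sterol enzymes stayed within -0.11 to 0.10 on group average, while the fatty acid genes spanned -0.30 to 0.30. Without ACSL4 and FABP5, which were dim in LNCaP, the fatty acid group averages spanned -0.33 to 0.17.

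The 2 arms moved over different ranges. Averaged over the 16 sterol enzymes, the deviation from the gene means was -0.02 ± 0.01 in LNCaP-abl with siTRIM24, 0.01 ± 0.01 in LNCaP-abl with sicontrol, 0.09 ± 0.01 in LNCaP with siTRIM24 and DHT, -0.07 ± 0.01 with siTRIM24 and vehicle, 0.10 ± 0.03 with sicontrol and DHT, and -0.11 ± 0.02 with sicontrol and vehicle (SD, n = 3 each). Averaged over the 12 fatty acid genes, it was 0.21 ± 0.01 in LNCaP-abl with siTRIM24, 0.30 ± 0.01 in LNCaP-abl with sicontrol, -0.02 ± 0.02 in LNCaP with siTRIM24 and DHT, -0.30 ± 0.03 with siTRIM24 and vehicle, 0.01 ± 0.03 with sicontrol and DHT, and -0.19 ± 0.05 with sicontrol and vehicle. Both arms were higher with DHT than with vehicle under either siRNA. LNCaP-abl had the highest fatty acid average and a middle sterol average. Without ACSL4 and FABP5, the members with the dimmest LNCaP signals, the fatty acid average was 0.15 ± 0.01 in LNCaP-abl with sicontrol and 0.17 ± 0.02 in LNCaP with sicontrol and DHT, so the lead of LNCaP-abl over DHT-treated LNCaP rested on those 2 genes.

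**Figure D2:**
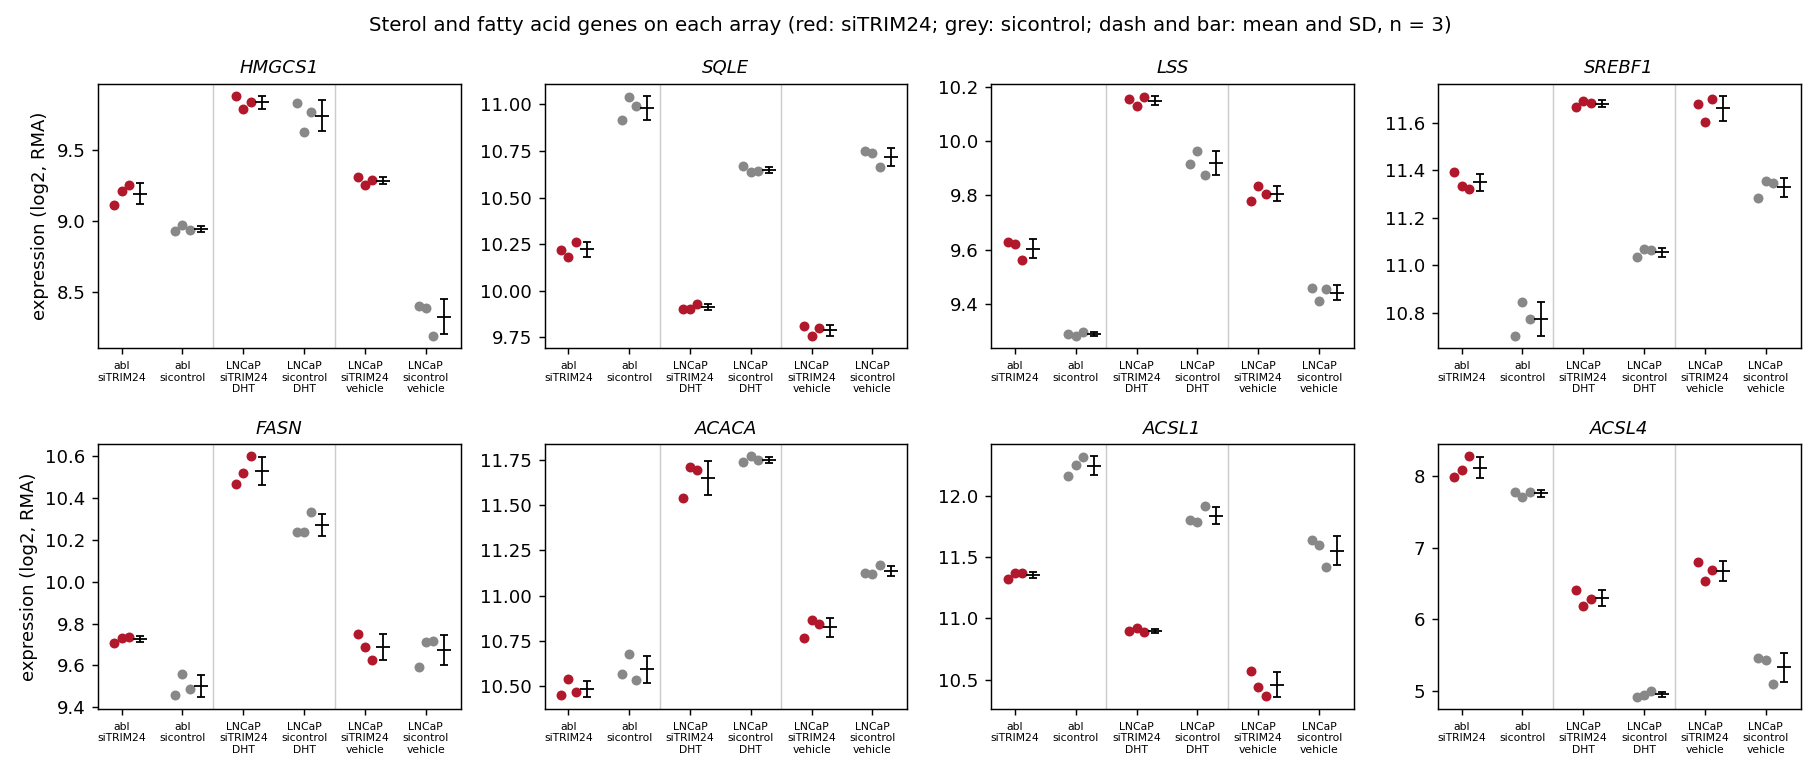
Log2 signal of 8 members on every array, by group, with the group mean and SD beside the 3 points. In LNCaP, HMGCS1 was at 9.26 or above in the 3 groups with siTRIM24 or DHT and at 8.19 to 8.40 with sicontrol and vehicle, while SQLE was at 9.76 to 9.93 with siTRIM24 and 10.64 to 10.75 with sicontrol.

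In LNCaP with siTRIM24, 9 of 16 sterol enzymes rose with DHT and 1 fell, with a median change of 0.12, where 43.5% of all genes passed, 16.9% higher and 26.6% lower. With sicontrol 8 of 16 rose and 1 fell, with a median of 0.11, where 45.7% of all genes passed, 19.4% higher and 26.4% lower. The median over all genes was -0.04 in both. The 2 DHT comparisons share no arrays. HMGCS1, IDI1, LSS, ACAT2, SC5D, EBP and NSDHL rose in both, and TM7SF2 fell in both. DHT and vehicle arrays did not overlap for 24 of 33 members with siTRIM24 (56.4% of all genes) and 23 of 33 with sicontrol (52.5% of all genes). Members that moved the same way in both comparisons were 17 of 33 (51.5%), against 31.6% of all genes.

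HMGCS1, the cytosolic HMG-CoA synthase that commits acetyl units to mevalonate, gave the largest sterol response. Its signal was 9.83, 9.62 and 9.77 with sicontrol and DHT, against 8.40, 8.39 and 8.19 with sicontrol and vehicle, a rise of 1.42 ± 0.06 (adjusted p = 1.19e-11). With siTRIM24 it was 9.88, 9.79 and 9.84 under DHT, against 9.31, 9.26 and 9.29 under vehicle, a rise of 0.55 ± 0.06 (adjusted p = 1.24e-06). The DHT arrays of both siRNAs reached like levels, and the vehicle arrays did not. A second HMGCS1 probe set rose by 0.82 with siTRIM24 and by 1.23 with sicontrol.

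IDI1, the isomerase that makes the reactive isoprenoid unit, was at 11.12, 11.09 and 11.03 with sicontrol and DHT, against 10.32, 10.33 and 10.37 with sicontrol and vehicle. It rose by 0.43 ± 0.03 with siTRIM24 (adjusted p = 1.44e-08) and by 0.74 ± 0.03 with sicontrol (adjusted p = 1.92e-11). IDI1 was read on a probe set of a type that can bind related transcripts. A second IDI1 probe set rose by 0.43 with siTRIM24 and by 0.68 with sicontrol, while the remaining 2 of its 4 fell by 0.31 and 0.20 with siTRIM24 and gave -0.02 and -0.10 with sicontrol. ACAT2, the thiolase that joins 2 acetyl-CoA, was at 9.65, 9.64 and 9.66 with sicontrol and DHT, against 9.22, 9.13 and 9.22 with sicontrol and vehicle. It rose by 0.26 ± 0.04 with siTRIM24 and by 0.46 ± 0.04 with sicontrol.

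Among the enzymes after squalene, LSS, which closes the ring to lanosterol, was at 9.92, 9.96 and 9.87 with sicontrol and DHT, against 9.46, 9.41 and 9.46 with sicontrol and vehicle. It rose by 0.34 ± 0.03 with siTRIM24 and by 0.48 ± 0.03 with sicontrol. SC5D, the sterol desaturase, was at 12.88, 12.79 and 12.83 with sicontrol and DHT, against 12.46, 12.42 and 12.39 with sicontrol and vehicle, and rose by 0.54 ± 0.03 with siTRIM24 and 0.41 ± 0.03 with sicontrol. EBP, the sterol isomerase, rose by 0.45 ± 0.04 with siTRIM24 and 0.27 ± 0.04 with sicontrol. NSDHL, a demethylating dehydrogenase, rose by 0.43 ± 0.06 with siTRIM24 and 0.22 ± 0.06 with sicontrol. The exception was TM7SF2, a sterol reductase. It was at 11.48, 11.47 and 11.34 with sicontrol and DHT, against 11.988, 12.001 and 12.174 with sicontrol and vehicle, and fell by 0.51 ± 0.05 with siTRIM24 and by 0.62 ± 0.05 with sicontrol. In each of these comparisons the DHT and vehicle arrays did not overlap.

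SQLE, squalene epoxidase and a rate-limiting enzyme of the pathway, was at 10.67, 10.64 and 10.64 with sicontrol and DHT, against 10.75, 10.74 and 10.66 with sicontrol and vehicle. Its difference of -0.07 had a 95% interval of -0.15 to 0.01 and did not pass (adjusted p = 0.15). MVK and PMVK, the mevalonate kinases, and MSMO1, the methylsterol oxidase, gave -0.05, 0.08 and -0.10 with sicontrol, none past the threshold. Some calls depended on single arrays. FDPS, the farnesyl diphosphate synthase, gave 0.14 with sicontrol and 0.11 without the first DHT array (adjusted p = 0.0611), and its arrays overlapped between the groups. The FDPS call was lost when any of 3 arrays was left out. With siTRIM24, DHCR7 gave 0.12, and 0.10 without the third DHT array (adjusted p = 0.0766), and SQLE gave 0.12, and 0.11 without the second vehicle array (adjusted p = 0.0587). The DHCR7 call was lost when either of 2 arrays was left out, and the SQLE call with that 1 array.

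Of the regulators, INSIG1, which retains SCAP in the endoplasmic reticulum and is itself an SREBP target, was at 11.59, 11.48 and 11.64 with sicontrol and DHT, against 11.24, 11.21 and 11.02 with sicontrol and vehicle. It rose by 0.30 ± 0.06 with siTRIM24 (adjusted p = 0.000427) and by 0.41 ± 0.06 with sicontrol (adjusted p = 2.08e-05). SCAP was at 10.86, 10.80 and 10.74 with sicontrol and DHT, against 10.21, 10.24 and 10.36 with sicontrol and vehicle. It rose by 0.65 ± 0.04 with siTRIM24 and by 0.53 ± 0.04 with sicontrol. SREBF1, which encodes the SREBP forms tied to fatty acid synthesis, was at 11.03, 11.07 and 11.06 with sicontrol and DHT, against 11.28, 11.36 and 11.35 with sicontrol and vehicle, a fall of 0.27 ± 0.04. With siTRIM24 it gave 0.02 ± 0.04 (adjusted p = 0.741). SREBF2, which encodes the form tied to cholesterol synthesis, was at 8.40, 8.52 and 8.49 with sicontrol and DHT, against 8.47, 8.35 and 8.44 with sicontrol and vehicle, with overlapping arrays and a difference of 0.05 ± 0.04. With siTRIM24 it rose by 0.24 ± 0.04, and its other probe sets gave a rise of 0.15 and a value of 0.05 that did not pass. STARD4, a carrier of cholesterol between membranes, fell by 0.38 ± 0.05 with siTRIM24 and gave 0.02 ± 0.05 with sicontrol.

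The median change with DHT was larger in the fatty acid arm than in the sterol arm, a difference that was not tested. With siTRIM24 7 of 12 fatty acid genes rose and 2 fell, with a median of 0.29, and with sicontrol 7 rose and 2 fell, with a median of 0.19. Of all genes 16.9% rose and 26.6% fell with siTRIM24, and 19.4% rose and 26.4% fell with sicontrol. ACACA, ACLY, FASN, ELOVL5 and ACSL1 rose in both comparisons, and ELOVL6 and ACSL4 passed as lower in both. ELOVL5, which elongates polyunsaturated fatty acids, was at 13.80, 13.83 and 13.86 with sicontrol and DHT, against 13.09, 13.10 and 12.99 with sicontrol and vehicle. It rose by 0.73 ± 0.04 with siTRIM24 (adjusted p = 7.62e-11) and 0.77 ± 0.04 with sicontrol (adjusted p = 4e-11), and all 4 of its probe sets rose in both. ACACA, acetyl-CoA carboxylase, which makes malonyl-CoA, was at 11.74, 11.77 and 11.75 with sicontrol and DHT, against 11.12, 11.12 and 11.17 with sicontrol and vehicle. Its rise was 0.83 ± 0.05 with siTRIM24 and 0.61 ± 0.05 with sicontrol.

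FASN, the fatty acid synthase, was at 10.24, 10.24 and 10.33 with sicontrol and DHT, against 9.59, 9.71 and 9.72 with sicontrol and vehicle. It rose by 0.84 ± 0.05 with siTRIM24 (adjusted p = 3.86e-10) and 0.60 ± 0.05 with sicontrol (adjusted p = 2.87e-08), while a dimmer second probe set gave -0.05 with siTRIM24 and 0.10 with sicontrol. ACLY, which makes cytosolic acetyl-CoA from citrate, rose by 0.37 ± 0.03 with siTRIM24 and 0.22 ± 0.03 with sicontrol. ELOVL6, which elongates palmitate, was at 10.36, 10.29 and 10.38 with sicontrol and DHT, against 10.73, 10.74 and 10.65 with sicontrol and vehicle, a fall of 0.36 ± 0.05. With siTRIM24 it fell by 0.30 ± 0.05. The second ELOVL6 probe set fell by 0.27 with siTRIM24 and by 0.38 with sicontrol, while the third, dimmest one gave -0.08 and -0.02, neither past the threshold. ACSL4, the acyl-CoA synthetase that prefers arachidonate, was at 4.91, 4.95 and 4.99 with sicontrol and DHT, against 5.46, 5.43 and 5.09 with sicontrol and vehicle, both below 5.88. FABP5, a fatty acid carrier, was at 5.86, 5.69 and 5.83 with sicontrol and DHT, against 5.37, 5.54 and 5.25 with sicontrol and vehicle, also all below 5.88.

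SCD, the desaturase that makes oleate, was at 13.13, 13.12 and 13.11 with sicontrol and DHT, against 13.12, 13.14 and 13.12 with sicontrol and vehicle. The difference of -0.01 had a 95% interval of -0.07 to 0.05, and of its 3 other probe sets 1 fell by 0.14 while the rest gave -0.07 and -0.01. With siTRIM24 SCD was at 12.68, 12.64 and 12.67 under DHT, against 12.19, 12.25 and 12.23 under vehicle, a rise of 0.44 ± 0.03 (adjusted p = 2.93e-09), and its 3 other probe sets rose by 0.16 to 0.20. The proliferation genes, a list of 10 mitotic markers, moved with DHT too: 6 rose with siTRIM24 and 8 with sicontrol, and none fell. Of all genes 16.9% rose with siTRIM24 and 19.4% with sicontrol. The part of the proliferation genes in the lipid results was not tested.

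Promoters of 4 members are shown because HMGCS1 and LSS rose with DHT under both siRNAs, SREBF2 encodes the sterol factor itself, and SCD is a fatty acid enzyme that rose with DHT under siTRIM24 alone of the 2 siRNAs. They are the 250 bases before the gene start, 5′ to 3′ on the gene's strand, from RefSeq on GRCh38.p14. Capitals mark matches, on either strand, to the NF-Y box CCAAT or the sterol regulatory element TCACNCCAC. HMGCS1 lies at chr5:43313413-43313662 on the minus strand, LSS at chr21:46228775-46229024 on the minus strand, SREBF2 at chr22:41832855-41833104 on the plus strand and SCD at chr10:100346983-100347232 on the plus strand.
HMGCS1: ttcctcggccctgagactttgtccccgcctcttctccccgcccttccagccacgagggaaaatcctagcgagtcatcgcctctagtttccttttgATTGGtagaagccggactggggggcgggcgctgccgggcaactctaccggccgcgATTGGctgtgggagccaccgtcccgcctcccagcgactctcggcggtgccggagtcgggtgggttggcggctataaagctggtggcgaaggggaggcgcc
LSS: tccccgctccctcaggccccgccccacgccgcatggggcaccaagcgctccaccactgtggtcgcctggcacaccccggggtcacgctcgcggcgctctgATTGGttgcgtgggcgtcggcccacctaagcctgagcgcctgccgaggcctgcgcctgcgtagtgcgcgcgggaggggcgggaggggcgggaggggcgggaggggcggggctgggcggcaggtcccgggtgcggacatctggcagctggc
SREBF2: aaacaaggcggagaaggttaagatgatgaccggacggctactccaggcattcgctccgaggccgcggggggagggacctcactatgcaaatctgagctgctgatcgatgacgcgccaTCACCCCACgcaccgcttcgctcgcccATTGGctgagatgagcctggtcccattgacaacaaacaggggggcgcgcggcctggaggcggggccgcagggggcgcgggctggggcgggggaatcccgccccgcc
SCD: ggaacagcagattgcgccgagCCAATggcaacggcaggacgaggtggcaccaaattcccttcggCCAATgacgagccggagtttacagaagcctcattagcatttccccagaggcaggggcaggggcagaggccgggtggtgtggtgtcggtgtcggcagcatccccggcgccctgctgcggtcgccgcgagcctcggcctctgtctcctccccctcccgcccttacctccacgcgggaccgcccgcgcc

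The HMGCS1 window held NF-Y boxes 155 and 100 bases before the start, the LSS window 1 at 150 and the SCD window 2 at 229 and 186. SREBF2 had the sterol element 133 bases before its start and an NF-Y box at 106. Over 300 bases, from 250 before to 50 after the start, the table held 31 members. No promoter was available for SQLE, ACAT2, FDFT1, FASN and FABP5, so these were not searched. The NF-Y box was present in 12 of 15 sterol enzymes (80%), 3 of 5 regulators and 4 of 11 fatty acid genes (36.4%), against 9747 of 27305 promoters (35.7%). The sterol element was found in 1 of 31 members, SREBF2, against 313 of all promoters (1.15%). The E-box CACGTG was in 5 of 31 members (16.1%), against 7.43% of all promoters. The androgen response element, as a strict palindrome on either strand, was in 0 of 31 members, against 0.388% of all promoters. No motif letters overlapped between the sterol element and the NF-Y box of SREBF2. A match is a run of letters and not a bound site, and letters missing from this window say nothing of the factor.

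**Figure D3:**
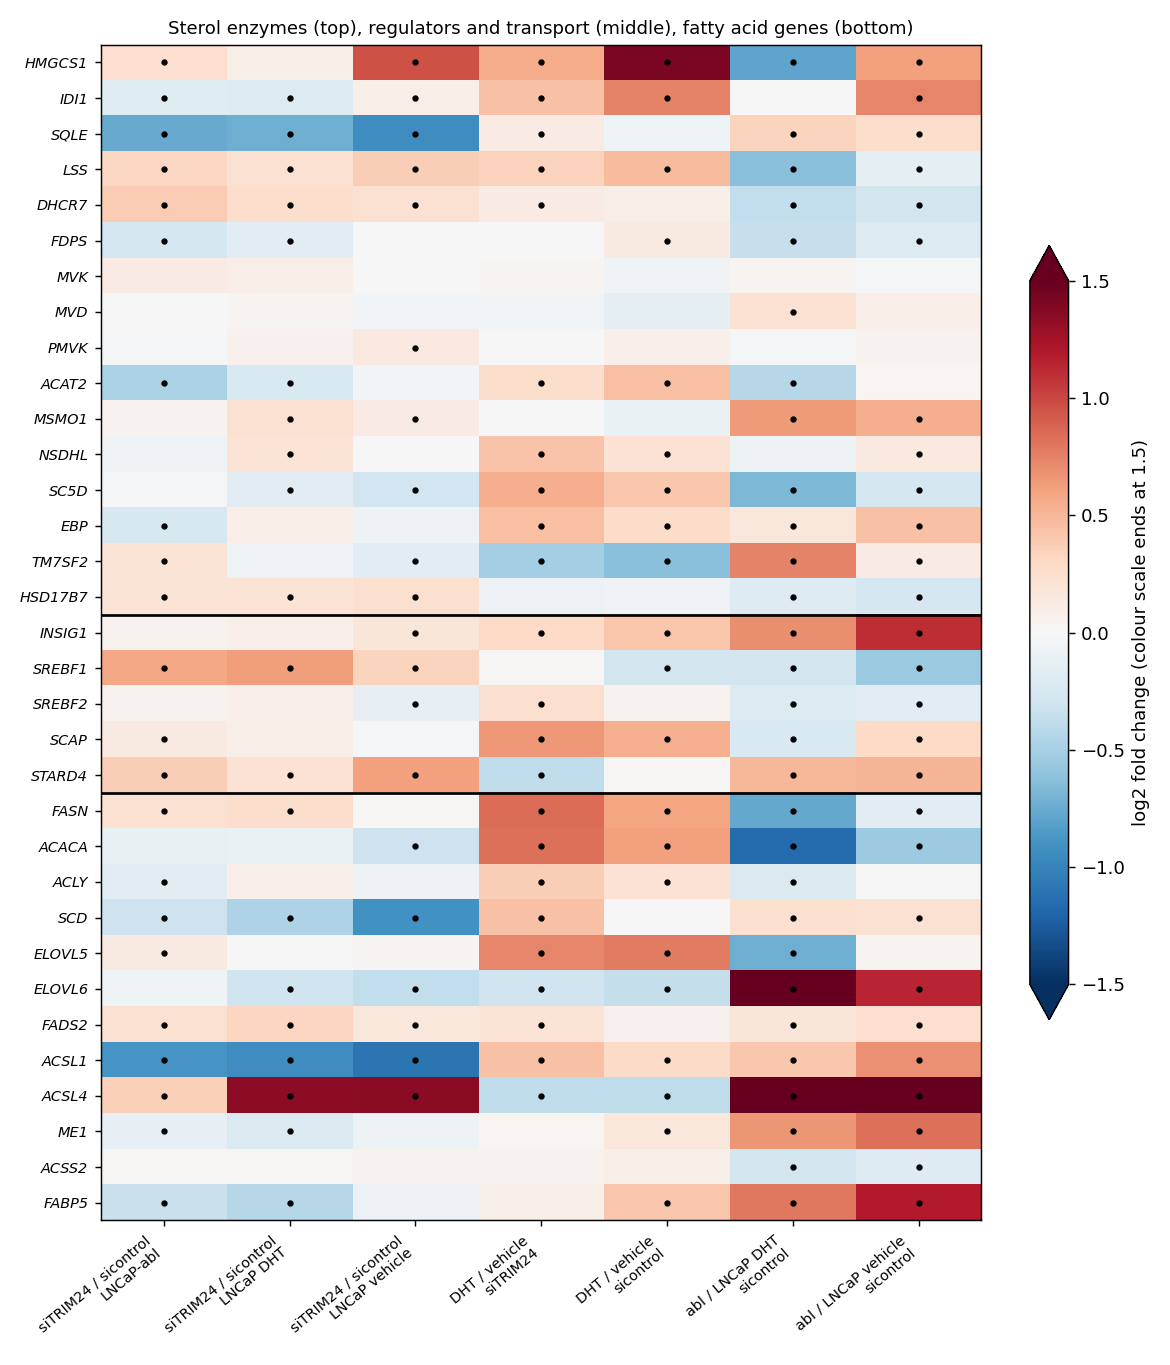
Log2 fold change of the 33 members (rows) in the 7 pairwise comparisons (columns), red for higher and blue for lower, with a dot where the member passed at an adjusted p under 0.05. The colour scale ends at 1.5. SQLE, SCD and ACSL1 are blue and ACSL4, SREBF1 and STARD4 red in all 3 columns of siTRIM24 over sicontrol.

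With siTRIM24, sterol enzymes moved in both directions. SQLE fell in all 3 settings, while LSS, DHCR7 and HSD17B7 rose in all 3. A shared direction thus held for 4 of 16 sterol enzymes (25%), against 18% of all genes. In LNCaP-abl 5 of 16 sterol enzymes rose and 5 fell, with a median of -0.01, where 45.6% of all genes passed, 16.7% higher and 28.8% lower. In LNCaP with DHT 5 rose and 5 fell, with a median of 0.08, where 40.2% of all genes passed, 19.4% higher and 20.8% lower. In LNCaP with vehicle 7 rose and 3 fell, with a median of 0.00, where 38.5% of all genes passed, 20.5% higher and 18% lower. The median over all genes was -0.01 in LNCaP-abl, 0.01 in LNCaP with DHT and 0.00 in LNCaP with vehicle. The 3 comparisons share no arrays with each other, but each LNCaP knockdown comparison shares its arrays with the DHT comparisons. Arrays of siTRIM24 and sicontrol did not overlap for 22 of 33 members in LNCaP-abl (52% of all genes), 26 in LNCaP with DHT (49.7%) and 23 with vehicle (50.9%). Members that moved the same way in all 3 were 10 of 33 (30.3%), against 18% of all genes.

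SQLE was at 10.22, 10.18 and 10.26 in LNCaP-abl with siTRIM24, against 10.91, 11.04 and 10.99 with sicontrol. Under DHT it was at 9.90, 9.90 and 9.93 with siTRIM24, against 10.67, 10.64 and 10.64 with sicontrol. In vehicle-treated LNCaP it was at 9.81, 9.76 and 9.80 with siTRIM24, against 10.75, 10.74 and 10.66 with sicontrol. The groups did not overlap in any setting. SQLE fell to 59% of the sicontrol level in LNCaP-abl, 60% in LNCaP with DHT and 52.6% in LNCaP with vehicle, by -0.76 ± 0.04 (adjusted p = 1.82e-10), -0.74 ± 0.04 (adjusted p = 3.03e-10) and -0.93 ± 0.04 (adjusted p = 2.44e-11). All 3 SQLE probe sets that could be tested fell in all 3 settings.

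HMGCS1 was at 9.31, 9.26 and 9.29 with siTRIM24 in LNCaP with vehicle, against 8.40, 8.39 and 8.19 with sicontrol, a rise of 0.96 ± 0.06 (adjusted p = 3.54e-09). In LNCaP with DHT the arrays overlapped, and the difference of 0.09 had a 95% interval of -0.03 to 0.22 (adjusted p = 0.248). In LNCaP-abl it was at 9.11, 9.21 and 9.25 with siTRIM24, against 8.93, 8.97 and 8.94 with sicontrol, a rise of 0.25 ± 0.06. The second HMGCS1 probe set gave -0.06 in LNCaP-abl, fell by 0.31 in LNCaP with DHT and gave 0.10 with vehicle, so the knockdown response of HMGCS1 differed between its probe sets.

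LSS was at 9.78, 9.84 and 9.80 with siTRIM24 in LNCaP with vehicle, against 9.46, 9.41 and 9.46 with sicontrol. It rose by 0.31 ± 0.03 in LNCaP-abl, by 0.23 ± 0.03 in LNCaP with DHT and by 0.36 ± 0.03 in LNCaP with vehicle. Of the 2 dimmer LSS probe sets, 1 rose in LNCaP-abl by 0.22, and they gave 0.04 to 0.25 elsewhere without passing. DHCR7, the reductase of the last step to cholesterol, was at 10.70, 10.82 and 10.74 with siTRIM24 in LNCaP-abl, against 10.38, 10.40 and 10.35 with sicontrol. Its rises were 0.38 ± 0.04 in LNCaP-abl, 0.27 ± 0.04 in LNCaP with DHT and 0.23 ± 0.04 in LNCaP with vehicle, and both of its probe sets rose in all 3. HSD17B7, a ketosterol reductase read on a probe set that can bind related transcripts, rose by 0.20 ± 0.03, 0.21 ± 0.03 and 0.24 ± 0.03 in the same settings. ACAT2, FDPS, IDI1 and EBP fell with SQLE in LNCaP-abl. ACAT2 was at 8.70, 8.77 and 8.77 with siTRIM24 there, against 9.17, 9.24 and 9.23 with sicontrol, and fell by 0.47 ± 0.04 (adjusted p = 9.41e-08). FDPS was at 10.59, 10.66 and 10.61 with siTRIM24 in LNCaP-abl, against 10.85, 10.87 and 10.94 with sicontrol, a fall of 0.27 ± 0.04.

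SC5D was at 12.13, 12.16 and 12.11 with siTRIM24 in LNCaP with vehicle, against 12.46, 12.42 and 12.39 with sicontrol. It gave -0.03 ± 0.03 in LNCaP-abl, and fell by 0.16 ± 0.03 in LNCaP with DHT and by 0.29 ± 0.03 with vehicle. IDI1 fell by 0.18 ± 0.03 in LNCaP-abl and by 0.20 ± 0.03 in LNCaP with DHT, and its second probe set fell by 0.13 and 0.20. Its 2 dimmer probe sets gave -0.07 and -0.09 in LNCaP-abl and 0.08 and 0.08 in LNCaP with DHT, none past the threshold. In LNCaP with vehicle 5 small calls were lost when any of 3 to 5 arrays was left out, and the weakest values follow. IDI1 gave 0.10, and 0.09 without the first sicontrol array (adjusted p = 0.0756), and SREBF2 gave -0.12, and -0.09 without the same array (adjusted p = 0.142). Without the third sicontrol array MSMO1 gave 0.07 in place of 0.12 (adjusted p = 0.16), TM7SF2 gave -0.11 in place of -0.17 (adjusted p = 0.104), and INSIG1 gave 0.12 in place of 0.19 (adjusted p = 0.102).

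SREBF1 rose with siTRIM24 in every setting. It was at 11.39, 11.34 and 11.32 in LNCaP-abl with siTRIM24, against 10.70, 10.84 and 10.78 with sicontrol, a rise of 0.58 ± 0.04 (adjusted p = 1.02e-08). Under DHT it was at 11.67, 11.69 and 11.68 with siTRIM24, against 11.03, 11.07 and 11.06 with sicontrol, a rise of 0.63 ± 0.04 (adjusted p = 3.83e-09). In vehicle-treated LNCaP it was at 11.68, 11.60 and 11.70 with siTRIM24, against 11.28, 11.36 and 11.35 with sicontrol, a rise of 0.33 ± 0.04 (adjusted p = 5.22e-06). The siTRIM24 arrays of LNCaP lay at one level whichever hormone they had, while the sicontrol arrays were lower with DHT. A second, dimmer SREBF1 probe set gave 0.19 in LNCaP-abl, 0.22 in LNCaP with DHT and 0.13 with vehicle, none past the threshold.

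STARD4 was at 8.89, 8.74 and 8.84 with siTRIM24 in LNCaP with vehicle, against 8.24, 8.24 and 8.14 with sicontrol. It rose by 0.37 ± 0.05 in LNCaP-abl, by 0.21 ± 0.05 in LNCaP with DHT and by 0.62 ± 0.05 with vehicle. SCAP was at 10.22, 10.21 and 10.27 with siTRIM24 in LNCaP with vehicle, against 10.21, 10.24 and 10.36 with sicontrol, overlapping. In LNCaP-abl it was at 10.72, 10.69 and 10.69 with siTRIM24, against 10.58, 10.58 and 10.55 with sicontrol, a rise of 0.13 ± 0.04 that lost its call without the third sicontrol array (0.12, adjusted p = 0.0504). INSIG1 was at 12.27, 12.34 and 12.34 in LNCaP-abl with siTRIM24, against 12.27, 12.23 and 12.30 with sicontrol, and the arrays overlapped. SREBF2 was at 8.35, 8.25 and 8.34 in LNCaP-abl with siTRIM24, against 8.30, 8.26 and 8.22 with sicontrol. Neither INSIG1 nor SREBF2 passed in LNCaP-abl or in LNCaP with DHT.

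In the fatty acid arm, ACSL1 and SCD fell and ACSL4 and FADS2 rose with siTRIM24 in all 3 settings, for SCD and FADS2 on the brightest probe set. These were 4 of 12 fatty acid genes (33.3%), against 18% of all genes. In LNCaP-abl 4 of 12 fatty acid genes rose and 5 fell (median -0.09), in LNCaP with DHT 3 rose and 5 fell (median -0.05), and in LNCaP with vehicle 2 rose and 4 fell (median -0.07). Of all genes 16.7% rose and 28.8% fell in LNCaP-abl, 19.4% rose and 20.8% fell in LNCaP with DHT, and 20.5% rose and 18% fell in LNCaP with vehicle. In both arms, genes passed in both directions under siTRIM24. Without ACSL4 and FABP5 the mean change of the fatty acid genes was -0.10 in LNCaP-abl, -0.13 in LNCaP with DHT and -0.25 with vehicle. The medians without these 2 genes were -0.09, -0.05 and -0.07. ACSL1, an acyl-CoA synthetase that activates long-chain fatty acids, was at 11.32, 11.37 and 11.37 in LNCaP-abl with siTRIM24, against 12.16, 12.25 and 12.32 with sicontrol. Under DHT it was at 10.89, 10.92 and 10.89 with siTRIM24, against 11.80, 11.79 and 11.92 with sicontrol. In vehicle-treated LNCaP it was at 10.57, 10.44 and 10.37 with siTRIM24, against 11.64, 11.60 and 11.42 with sicontrol. ACSL1 fell to 54%, 52.3% and 46.9% of the sicontrol level in these settings, by -0.89 ± 0.06, -0.94 ± 0.06 and -1.09 ± 0.06 (adjusted p = 1.02e-08, 5.69e-09 and 9.35e-10). Its second probe set fell too, with -0.96, -1.07 and -1.16.

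ACSL4 moved opposite to ACSL1. It was at 7.995, 8.087 and 8.280 in LNCaP-abl with siTRIM24, against 7.78, 7.71 and 7.79 with sicontrol, a rise of 0.36 ± 0.10. Under DHT it was at 6.42, 6.19 and 6.29 with siTRIM24, against 4.91, 4.95 and 4.99 with sicontrol. In vehicle-treated LNCaP it was at 6.80, 6.53 and 6.69 with siTRIM24, against 5.46, 5.43 and 5.09 with sicontrol. In both LNCaP settings it passed as higher over sicontrol signals below 5.88, and the arrays did not overlap. FADS2, the desaturase of polyunsaturated fatty acids, rose by 0.23 ± 0.05 in LNCaP-abl, 0.32 ± 0.05 in LNCaP with DHT and 0.17 ± 0.05 in LNCaP with vehicle. Its second, dimmer probe set rose by 0.38 in LNCaP with DHT, and gave 0.04 in LNCaP-abl and 0.13 with vehicle, neither past the threshold.

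**Figure D4:**
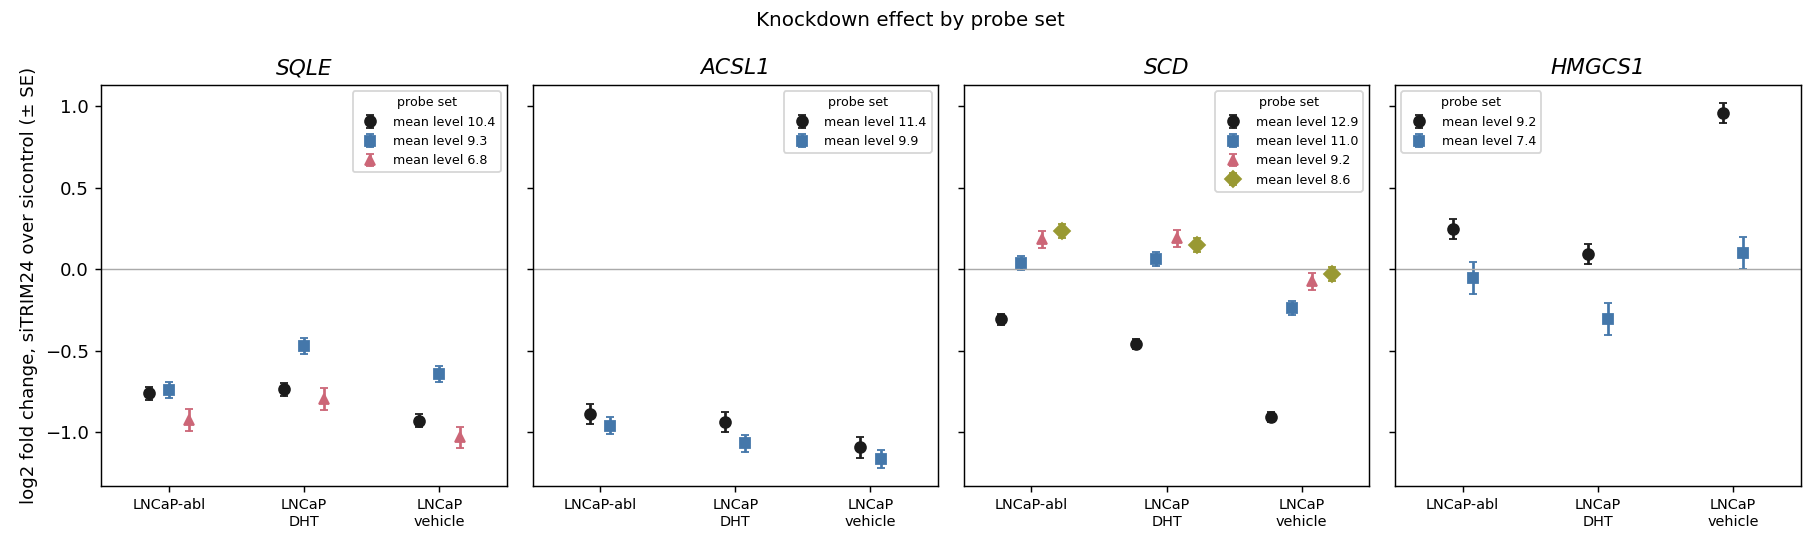
Log2 fold change of siTRIM24 over sicontrol, with its SE, for each tested probe set of SQLE, ACSL1, SCD and HMGCS1 in the 3 settings, with the mean level of each probe set in the legend. The 3 SQLE and 2 ACSL1 probe sets lie together below 0, while the 4 SCD probe sets spread from -0.91 to -0.03 in LNCaP with vehicle.

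The brightest SCD probe set was at 13.04, 13.08 and 13.03 in LNCaP-abl with siTRIM24, against 13.34, 13.33 and 13.39 with sicontrol, and fell by 0.31 ± 0.03. It fell by 0.46 ± 0.03 in LNCaP with DHT and by 0.91 ± 0.03 in LNCaP with vehicle (adjusted p = 1.86e-12). Its direction was not shared by the other SCD probe sets. They gave 0.04, 0.18 and 0.24 in LNCaP-abl and 0.06, 0.19 and 0.15 in LNCaP with DHT, and the last 2 rose in both. In LNCaP with vehicle they gave -0.24, -0.07 and -0.03, and the first of them fell. The fall of SCD under DHT and in LNCaP-abl is therefore a statement about 1 probe set.

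FASN was at 10.47, 10.52 and 10.60 with siTRIM24 in LNCaP with DHT, against 10.24, 10.24 and 10.33 with sicontrol, a rise of 0.26 ± 0.05 (adjusted p = 0.000345). It rose by 0.22 ± 0.05 in LNCaP-abl (adjusted p = 0.0011), and gave 0.01 with a 95% interval of -0.09 to 0.11 in LNCaP with vehicle. Its dimmer probe set gave 0.08 in LNCaP-abl, -0.06 in LNCaP with DHT and 0.09 with vehicle. ACACA was at 10.77, 10.86 and 10.84 with siTRIM24 in LNCaP with vehicle, against 11.12, 11.12 and 11.17 with sicontrol, a fall of 0.31 ± 0.05, while its second probe set gave 0.06 there and rose by 0.18 with DHT. ELOVL6 was at 10.43, 10.27 and 10.32 with siTRIM24 in LNCaP with vehicle, against 10.73, 10.74 and 10.65 with sicontrol. It fell by 0.30 ± 0.05 in LNCaP with DHT and by 0.37 ± 0.05 with vehicle, and its 2 other probe sets fell in both. FABP5 fell by 0.33 ± 0.09 in LNCaP-abl, and passed as lower in LNCaP with DHT, where its signals were below 5.88. ME1, the malic enzyme that supplies NADPH, fell by 0.12 ± 0.03 in LNCaP-abl and by 0.21 ± 0.03 in LNCaP with DHT, where a second probe set gave 0.02 and 0.03. ACSS2, which makes acetyl-CoA from acetate, gave 0.02 to 0.06 and did not pass in any of the 3.

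Other measures moved with siTRIM24. The log2 ratio of 3′ to 5′ signal of GAPDH, a measure of RNA integrity and labelling, was 0.64 ± 0.02 with siTRIM24 in LNCaP-abl, against 0.56 ± 0.01 with sicontrol. In LNCaP with DHT it was 0.63 ± 0.01 with siTRIM24, against 0.56 ± 0.01 with sicontrol, and in LNCaP with vehicle 0.59 ± 0.02 with siTRIM24, against 0.52 ± 0.03 with sicontrol (SD, n = 3 each). The same ratio for ACTB was 1.99 ± 0.09 with siTRIM24 in LNCaP-abl, against 1.87 ± 0.09 with sicontrol. For LNCaP with DHT it was 2.19 ± 0.07 against 1.85 ± 0.09, and with vehicle 2.05 ± 0.07 against 1.87 ± 0.06. Of the 10 proliferation genes 9 fell in LNCaP-abl (median -1.67), 8 in LNCaP with DHT (median -0.64) and 8 in LNCaP with vehicle (median -0.42), and none rose. Of all genes 28.8%, 20.8% and 18% fell in these settings. The part of the proliferation genes in the lipid results was not tested.

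Of 42 further genes of lipid handling, 32 were tested. With siTRIM24 16 rose and 6 fell in LNCaP-abl, 17 rose and 6 fell in LNCaP with DHT, and 14 rose and 8 fell in LNCaP with vehicle. Of all genes 16.7%, 19.4% and 20.5% rose and 28.8%, 20.8% and 18% fell in these settings. LPCAT3, which puts polyunsaturated acyl chains into phospholipids, rose by 0.86, 0.74 and 0.74 in these settings, and DGAT1, the last enzyme of triglyceride synthesis, by 0.61, 0.82 and 0.60. SOAT1, which esterifies cholesterol, rose by 0.62 in LNCaP-abl and by 0.70 in LNCaP with vehicle. ACAT1, the mitochondrial thiolase, fell by 0.81, 1.37 and 1.11 in the 3 settings, and GPAM, the first acyltransferase of glycerolipid synthesis, fell by 0.70, 0.65 and 1.16. With DHT in LNCaP 7 rose and 9 fell with siTRIM24, where 16.9% of all genes rose and 26.6% fell. With DHT and sicontrol 7 rose and 17 fell, where 19.4% of all genes rose and 26.4% fell. Under DHT ELOVL7, an elongase of long saturated chains, rose by 2.00 with siTRIM24 and 2.21 with sicontrol, and SOAT1 rose by 1.18 and 1.30. INSIG2, the other INSIG gene, fell by 0.92 with siTRIM24 and 1.36 with sicontrol. ELOVL2, an elongase of very long polyunsaturated chains, rose by 2.34 and 1.96 over dim vehicle signals.

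The response to siTRIM24 was compared between hormone settings through the interaction, the change with siTRIM24 under DHT minus that under vehicle. Of the 33 members 8 passed, 4 in each direction, where 11.1% of all genes did, 5.38% higher and 5.7% lower. The largest were HMGCS1 at -0.86 ± 0.08 (adjusted p = 1.92e-05) and SCD at 0.45 ± 0.04 (adjusted p = 1.22e-05). STARD4 followed at -0.40 ± 0.08, IDI1 at -0.31 ± 0.05 and SREBF1 at 0.29 ± 0.06. For HMGCS1 and STARD4 the rise with siTRIM24 was smaller under DHT, and for SCD the fall was smaller. The second HMGCS1 probe set gave -0.41, which did not pass, and the other SCD probe sets gave 0.30, 0.26 and 0.18, the last not past the threshold. FASN at 0.25, SQLE at 0.19 and ACAT2 at -0.19 each lost their call when any of 7 or 8 arrays was left out. The weakest values were 0.21 for FASN and -0.16 for ACAT2 without the third siTRIM24 DHT array (adjusted p = 0.0737 and 0.0911), and 0.18 for SQLE without the second siTRIM24 vehicle array (adjusted p = 0.0725).

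Between cell lines, the change with siTRIM24 in LNCaP-abl minus that in vehicle-treated LNCaP passed for 17 of 33 members, 10 higher and 7 lower, where 28.5% of all genes did, 8.6% higher and 19.9% lower. Leaving aside ACSL4, whose LNCaP sicontrol signal is below 5.88, HMGCS1 at -0.71 ± 0.08, SCD at 0.60 ± 0.04 and ACAT2 at -0.43 ± 0.06 were the largest. All 4 SCD probe sets passed, the others at 0.28, 0.26 and 0.27, while the second HMGCS1 probe set gave -0.15 and did not pass. On point values, the falls of SQLE and ACSL1 were smaller in LNCaP-abl than in vehicle-treated LNCaP. SQLE gave 0.17 ± 0.05 (adjusted p = 0.0268), which 5 of the arrays could undo (weakest 0.15, adjusted p = 0.0675). ACSL1 gave 0.20 ± 0.09 and did not pass (adjusted p = 0.0913). It passed when either of 2 arrays was left out, with 0.27 without the third LNCaP sicontrol vehicle array (adjusted p = 0.01985).

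LNCaP-abl was set against LNCaP with sicontrol in both. The same 3 LNCaP-abl arrays enter both comparisons, against vehicle-treated and DHT-treated LNCaP, and the values are given side by side. Against vehicle 7 of 16 sterol enzymes were higher in LNCaP-abl and 5 lower (median 0.08), and against DHT 5 were higher and 7 lower (median -0.05). Of the fatty acid genes 7 were higher and 3 lower (median 0.24) against vehicle, and 7 higher and 5 lower (median 0.21) against DHT, with ACSL4 and FABP5 among the higher ones in both. Of all genes 63.8% passed against vehicle, 29.1% higher and 34.6% lower, and 67.6% against DHT, 33.2% higher and 34.4% lower. Arrays of the lines did not overlap for 25 of 33 members against vehicle (66.6% of all genes) and 29 against DHT (69.2%). Without ACSL4 and FABP5 the fatty acid median was 0.13 against vehicle and -0.01 against DHT. The proliferation genes were higher in LNCaP-abl in 10 of 10 in both, with medians of 1.54 and 1.19, and their part in the lipid differences was not tested.

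Within the sterol arm, IDI1 was at 11.04, 11.11 and 11.07 in LNCaP-abl, against 10.32, 10.33 and 10.37 in LNCaP with vehicle, a difference of 0.74 ± 0.03 (adjusted p = 6.61e-12). Against LNCaP with DHT its difference was -0.00 with a 95% interval of -0.07 to 0.07, while 2 of its dimmer probe sets were higher by 1.39 and 0.29. HMGCS1 gave 0.62 ± 0.06 against vehicle and -0.80 ± 0.06 against DHT, so that LNCaP-abl lay between the hormone settings of LNCaP. MSMO1 was at 13.02, 13.08 and 13.03 in LNCaP-abl, against 12.57, 12.54 and 12.39 in LNCaP with vehicle and 12.42, 12.35 and 12.45 with DHT, higher by 0.54 ± 0.04 and 0.64 ± 0.04. LSS gave -0.15 ± 0.03 against vehicle and -0.63 ± 0.03 against DHT, SC5D gave -0.26 ± 0.03 and -0.67 ± 0.03, and both passed as lower in both. TM7SF2 was at 12.17, 12.19 and 12.18 in LNCaP-abl, against 11.48, 11.47 and 11.34 in LNCaP with DHT, higher by 0.75 ± 0.05. Against vehicle its 0.13 lost its call when any of 5 arrays was left out (weakest 0.09 without the first LNCaP array, adjusted p = 0.169). The 0.15 of NSDHL lost its call with any of 4 arrays left out (weakest 0.11 without the third LNCaP array, adjusted p = 0.137).

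INSIG1 was at 12.27, 12.23 and 12.30 in LNCaP-abl, against 11.24, 11.21 and 11.02 in LNCaP with vehicle and 11.59, 11.48 and 11.64 with DHT. It was higher by 1.11 ± 0.06 (adjusted p = 5.49e-11) and 0.70 ± 0.06 (adjusted p = 1.65e-08), in all 3 of its probe sets. SREBF1 was at 10.70, 10.84 and 10.78 in LNCaP-abl, against 11.28, 11.36 and 11.35 in LNCaP with vehicle and 11.03, 11.07 and 11.06 with DHT, a difference of -0.56 ± 0.04 and -0.28 ± 0.04. SCAP, at 10.58, 10.58 and 10.55 in LNCaP-abl, gave 0.30 ± 0.04 and -0.23 ± 0.04. SREBF2, at 8.30, 8.26 and 8.22 in LNCaP-abl, gave -0.16 and -0.21, while a dimmer probe set gave 0.29 and 0.09. STARD4 was higher by 0.51 ± 0.05 and 0.49 ± 0.05.

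Among the fatty acid genes, ELOVL6, ME1, ACSL1, FADS2 and SCD were higher in LNCaP-abl than in LNCaP with either hormone setting. ACSL4 was at 7.78, 7.71 and 7.79 in LNCaP-abl, against 5.46, 5.43 and 5.09 in LNCaP with vehicle and 4.91, 4.95 and 4.99 with DHT. The lines did not overlap, and all 6 LNCaP signals were below 5.88. ELOVL6 was at 11.86, 11.76 and 11.94 in LNCaP-abl, against 10.73, 10.74 and 10.65 in LNCaP with vehicle and 10.36, 10.29 and 10.38 with DHT, higher by 1.14 ± 0.05 and 1.51 ± 0.05 in all 3 probe sets. ME1 was at 12.51, 12.50 and 12.45 in LNCaP-abl, against 11.64, 11.70 and 11.65 in LNCaP with vehicle, higher by 0.82 ± 0.03, and by 0.66 ± 0.03 against DHT. FABP5 was at 6.58, 6.63 and 6.53 in LNCaP-abl, against 5.37, 5.54 and 5.25 in LNCaP with vehicle and 5.86, 5.69 and 5.83 with DHT. It was kept for testing only through its LNCaP-abl signals, so its place among the higher genes supports nothing. ACSL1 was at 12.16, 12.25 and 12.32 in LNCaP-abl, against 11.64, 11.60 and 11.42 in LNCaP with vehicle, higher by 0.69 ± 0.06, and by 0.41 ± 0.06 against DHT.

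ACACA and FASN were lower in LNCaP-abl than in LNCaP in both comparisons. ACLY gave 0.01 ± 0.03 against vehicle (adjusted p = 0.842) and -0.21 ± 0.03 against DHT. ACACA was at 10.57, 10.68 and 10.53 in LNCaP-abl, against 11.12, 11.12 and 11.17 in LNCaP with vehicle and 11.74, 11.77 and 11.75 with DHT. Its differences were -0.55 ± 0.05 and -1.16 ± 0.05, the second 44.8% of the level under DHT, and -0.89 and -1.68 on its other probe set. FASN was at 9.46, 9.56 and 9.49 in LNCaP-abl, against 9.59, 9.71 and 9.72 in LNCaP with vehicle and 10.24, 10.24 and 10.33 with DHT, a difference of -0.17 ± 0.05 and -0.77 ± 0.05. ELOVL5 was at 13.11, 13.08 and 13.11 in LNCaP-abl, against 13.80, 13.83 and 13.86 in LNCaP with DHT, a difference of -0.73 ± 0.04, and gave 0.04 ± 0.04 against vehicle. ACSS2 gave -0.19 against vehicle, with overlapping arrays, and -0.15 without the third LNCaP-abl array (adjusted p = 0.0893). The ACSS2 call was lost when any of 4 arrays was left out. SCD was higher by 0.23 ± 0.03 and 0.24 ± 0.03, and its other probe sets were higher by 0.51 to 0.71.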

How the data were processed

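The authors deposited log2 expression values for 18 Affymetrix arrays, which were RMA values per the submitters' processing notes. The RMA version is not given in the sources used here. RMA corrects background, sets all arrays to one distribution and summarises the probes of a probe set, so dim signals are compressed and a shift of all transcripts together cannot be seen. Biotin-labelled cRNA was primed from the poly(A) tail per the labels' protocols, so 3′ probe sets are favoured. The number of arrays limits the precision.

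Probe sets were named through the platform annotation: 41097 carried 1 symbol, 1801 several and 11777 none, and 41043 symbols were updated by gene ID. Each gene was represented by its probe set with the highest mean. Genes whose value reached the median of the table (5.88) in at least 3 arrays were kept. One group-means model over all 18 arrays was fitted in limma 3.58.1 (R 4.3.3) with lmFit and eBayes (12 residual degrees of freedom), and p-values were adjusted with Benjamini-Hochberg over 13607 genes in each of 9 comparisons. A gene passed at an adjusted p under 0.05. The fit was tested on simulated data. Single probe sets of members were fitted in a table of all probe sets.

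The members and gene lists were chosen with earlier results of these data known. By the rule for names, any member may be named. Values per array are given for members that passed without overlap, up to 6 per arm by size of change, and for INSIG1, SREBF1, SREBF2 and SCAP, with a few further members shown to complete a comparison. Up to 4 further lipid genes per direction and comparison are named by size. Deviations of same-numbered arrays from their group means had a median correlation of -0.01 between groups (45 pairs, -0.30 to 0.20). For different numbers the median was 0.01. Pairing within single comparisons was not tested. The labels state no pairing, so replicate numbers were not used as pairs. Alternatives changed the filter, the probe set, the scaling, the samples, the variance model, the weights, the covariate, the threshold and the arrays left out. Promoters were taken from RefSeq on GRCh38.p14.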

Additional observations from a re-analysis of the deposited data

Results flagged for a closer look

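The response of 8 members to siTRIM24 differed between DHT and vehicle in LNCaP by the interaction test. The differences, DHT minus vehicle, were HMGCS1 -0.86 (limma, adjusted p = 1.92e-05), SCD 0.45 (adjusted p = 1.22e-05), STARD4 -0.4 (adjusted p = 0.00351), IDI1 -0.31 (adjusted p = 0.000572), SREBF1 0.29 (adjusted p = 0.00337), FASN 0.25 (adjusted p = 0.0281), SQLE 0.19 (adjusted p = 0.0292) and ACAT2 -0.19 (adjusted p = 0.0362).

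The response of 17 members to siTRIM24 differed between LNCaP-abl and vehicle-treated LNCaP by the same test. Lower in LNCaP-abl were ACSL4 at -0.99, HMGCS1 at -0.71, ACAT2 at -0.43, IDI1 at -0.28, FDPS at -0.26, STARD4 at -0.25 and PMVK at -0.18. Higher in LNCaP-abl were SCD at 0.6, TM7SF2 at 0.38, ELOVL6 at 0.3, SC5D at 0.26, SREBF1 at 0.24, ACACA at 0.21, FASN at 0.21, SREBF2 at 0.17, SQLE at 0.17 and SCAP at 0.16. The size for ACSL4 cannot be read, since its LNCaP sicontrol signal is below 5.88. Their adjusted p ran between 8.59e-08 for SCD and 0.0441 for SREBF2. The calls of ACACA, FASN, PMVK, SCAP, SQLE, SREBF2 and STARD4 were lost when single arrays were left out, with adjusted p up to 0.0916, 0.0737, 0.0685, 0.0976, 0.0675, 0.104 and 0.0655 in that order. Both interactions share the LNCaP vehicle arrays.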

How the results depend on the processing

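Of 187 member calls, 101 passed in the same direction in all alternatives run. All reversals came from the choice of probe set. With the most variable probe set, ACACA, ME1 and SREBF2 gave 0.0571, 0.28 and 0.17 with siTRIM24 in LNCaP with vehicle, and ACACA, IDI1, ME1 and SCD gave 0.18, 0.0793, 0.0296 and 0.15 with DHT. In LNCaP-abl ELOVL5, ME1 and SCD gave -0.0895, 0.0206 and 0.24. IDI1 gave -0.31 and -0.0227 with DHT under siTRIM24 and sicontrol. LNCaP-abl against vehicle gave 0.27 for MVK and 0.29 for SREBF2, against DHT 1.39 for IDI1 and 0.0914 for SREBF2, and the cell line interaction of ACACA gave -0.0869. With the mean of probe sets, SREBF2 gave 0.0119 with siTRIM24 in LNCaP with vehicle, ME1 and SCD gave 0.0007 and 0.0378 in LNCaP-abl, and LNCaP-abl gave 0.0425 for SREBF2 against vehicle and 0.39 for IDI1 against DHT.

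Counts of passing genes moved most for the interactions. Each count was taken anew over the whole arm. In the hormone interaction the count of sterol enzymes was 4 in the main fit. It was 2 with no filter, 1 with the most variable probe set and 9 with array weights. At an adjusted p under 0.01 it was 2, and at a change of at least 0.25 also 2. The count of fatty acid genes there was 2 in the main fit and 1 with no filter, centred arrays or only the groups compared. It was also 1 at p under 0.01 or at a change of at least 0.25. With a filter 1 higher or an intensity trend with robust variances it was 5, and with array weights 4. For the cell line interaction the fatty acid count went from 5 to 3 with no filter, the mean of probe sets or centred arrays. It was also 3 at p under 0.01 or at a change of at least 0.25. With siTRIM24, the fatty acid count went from 9 to 4 in LNCaP-abl and from 8 to 5 in LNCaP with DHT. This held under the mean of probe sets and with GAPDH 3′ to 5′ signal as a covariate. That covariate lowered the count over all genes to 3302 in LNCaP-abl, 3133 in LNCaP with DHT and 3433 with vehicle, against 6201, 5468 and 5236. At a change of at least 0.25, sterol counts fell from 10 to 5, 2 and 4 in LNCaP-abl, LNCaP with DHT and LNCaP with vehicle. Fatty acid counts fell from 9 to 4 in LNCaP-abl, and from 10 to 6 for LNCaP-abl against vehicle. The cause was not tested.

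Leaving out 1 array at a time gave 10 to 11, 10 to 10 and 8 to 9 sterol enzymes with siTRIM24 in LNCaP-abl, LNCaP with DHT and LNCaP with vehicle, and 9, 8 and 6 fatty acid genes each time. It gave 2 to 5 sterol and 1 to 3 fatty acid genes for the hormone interaction, and 6 to 10 and 3 to 5 for the cell line interaction. The replicate block, whose numbers are not stated to pair the arrays, left arm counts within 1.5 times (fatty acid genes in LNCaP-abl 10, sterol enzymes in LNCaP-abl against vehicle 11). Under it 4 of 297 member results lost their call and 2 gained one. The median residual SD was 0.0732 on the log2 scale. FABP5 and ACSL4 were too dim in LNCaP for a size to be read.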
